A study of Homo sapiens with 4 samples.

Results

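NF-kB is a family of transcription factors, and the genes described here are those of its 5 subunits (NFKB1, NFKB2, RELA, RELB and REL) and of 5 proteins that restrain or modify it (NFKBIA, NFKBIB, NFKBIE, NFKBIZ and TNFAIP3). Members were taken as every probe set, a group of short array probes read together as 1 value, that the platform annotation tied to exactly 1 of these genes. This gave 19 probe sets for 10 genes, out of 49293 probe sets and 18132 genes with a probe set naming 1 gene. All 10 genes and all 19 probe sets passed the filter on dim values.

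The arrays measured total RNA from SCC-15, a line long established from a human squamous carcinoma of the tongue. In 2 samples the cells had been given a microRNA mimic, that is, a made RNA duplex that acts as an added mature microRNA. In the other 2 they had been given miR-NC, a negative control. The labels give 30 nM for the transfection and 36 h from transfection to collection. The sources disagree on the mimic: the series title and design text name miR-762, and both mimic samples are labelled miR-585-5p, so the group is called "mimic" here. A single cell line was used, and the labels do not say whether the 2 samples of a group were separate cultures, so the p-values cover only the spread seen between arrays, part or all of which may be technical. The 2 named microRNAs are shown because they share no seed, the stretch from base 2 to base 8 that pairs with target messenger RNAs. The seed is in capitals in these mature RefSeq sequences (GRCh38.p14, chr16:30893951-30893972 on the plus strand and chr5:169263649-169263670 on the minus strand).
hsa-miR-762: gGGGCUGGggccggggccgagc
hsa-miR-585-5p: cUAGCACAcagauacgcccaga

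NF-kB dimers are held in the cytoplasm by inhibitor proteins of the IkB family. Signals from cytokine and pattern recognition receptors activate the IKK kinases, which mark the inhibitors for destruction and free the dimers to enter the nucleus. Several genes of the pathway, NFKBIA and TNFAIP3 among them, are themselves NF-kB targets, which closes negative feedback loops. In squamous epithelium the pathway is known for driving inflammatory cytokines and chemokines and for supporting survival.

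Because several of these genes are known NF-kB targets, promoters were searched for the kB consensus motif, the NF-kB binding sequence (a run of G bases, a purine, a pair of free bases, a pair of pyrimidines and a pair of C bases), on both strands. RefSeq promoters of 300 bases, 250 before and 50 after a transcript start, were listed for 8 of the 10 genes, 14 promoters in all; RELB and NFKBIE were not among them. The motif was found in 9 of these 14 promoters and in 7 of the 8 genes, all but RELA, against 11.3% of 35116 promoters overall. The motif was chosen after the promoters had been read, and a match is a description of the letters, not a binding site. The 4 genes shown had a match in the 250 bases before their outermost start, with the matches in capitals. They cover the member with the largest difference (NFKBIZ), a subunit gene that fell (NFKB1) and 2 genes whose difference did not pass the test (REL and NFKBIA).
NFKBIZ, chr3:101827740-101827989, plus strand: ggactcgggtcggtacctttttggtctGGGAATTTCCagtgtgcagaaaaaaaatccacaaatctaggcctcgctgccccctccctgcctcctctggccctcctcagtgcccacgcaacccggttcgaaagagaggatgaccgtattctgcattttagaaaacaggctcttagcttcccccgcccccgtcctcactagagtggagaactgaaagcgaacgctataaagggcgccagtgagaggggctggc
NFKB1, chr4:102501109-102501358, plus strand: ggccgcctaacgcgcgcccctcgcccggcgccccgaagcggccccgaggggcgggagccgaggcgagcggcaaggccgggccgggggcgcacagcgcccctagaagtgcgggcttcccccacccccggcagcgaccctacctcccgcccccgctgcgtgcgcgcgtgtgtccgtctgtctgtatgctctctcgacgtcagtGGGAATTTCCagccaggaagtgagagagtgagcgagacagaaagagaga
REL, chr2:60881324-60881573, plus strand: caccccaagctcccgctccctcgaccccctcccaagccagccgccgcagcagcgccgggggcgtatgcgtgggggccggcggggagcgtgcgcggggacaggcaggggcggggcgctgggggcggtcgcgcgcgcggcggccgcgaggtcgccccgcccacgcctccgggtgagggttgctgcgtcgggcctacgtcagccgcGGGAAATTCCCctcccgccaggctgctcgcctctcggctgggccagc
NFKBIA, chr14:35404750-35404999, minus strand: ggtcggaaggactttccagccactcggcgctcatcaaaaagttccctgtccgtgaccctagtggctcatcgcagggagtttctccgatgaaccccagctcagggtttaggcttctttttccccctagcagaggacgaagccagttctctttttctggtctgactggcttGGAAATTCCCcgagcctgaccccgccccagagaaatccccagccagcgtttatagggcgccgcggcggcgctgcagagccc
In NFKBIZ the match GGGAATTTCC began 223 bases before the start, and the same letters began 49 bases before the start of NFKB1. In REL 2 matches on opposite strands overlapped, starting 47 and 46 bases before the start, and in NFKBIA the match began 81 bases before it. The motif was thus present in promoters of genes that fell and of genes that did not pass.

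The arrays of a group were close to each other, with r = 0.998 (mimic) and r = 0.997 (control) over the log2 values of all probe sets (probe sets are not replicates), against 0.991 between groups. The 6 markers of squamous epithelium that could be measured were bright (KRT5 at 11.79 to 12.32 on the log2 scale). Of these 6, 3 (KRT5, KRT14, ITGB4) were called higher in the mimic arrays, as were 17.7% of all genes tested. For ITGB4, 4 of its 8 probe sets had the opposite sign (range -0.17 to 0.66). The summed intensity of the 6 markers was 10200 and 10400 in the mimic arrays and 8100 and 7720 in the controls. Of 5 leukocyte markers, PTPRC and CD3D were below the filter level, CD14 and CD68 were called higher, LCP1 did not pass (-0.25), and the sum was 127 to 137 (mimic) against 107 to 114 (control). Of 6 fibroblast markers COL3A1, DCN and LUM were below the filter level, with sums of 55.4 to 62.4 against 66.0 to 68.0, and the 4 endothelial markers summed to 73.6 to 74.2 against 80.9 to 83.1, none of either list being called. The part of these markers in the results below was not tested.

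The NF-kB genes were lower in the mimic arrays or did not pass the test. Of the 10 genes, 4 fell (NFKB1, NFKB2, NFKBIB and NFKBIZ), 0 rose and 6 did not pass (limma, Benjamini-Hochberg adjusted p under 0.05 over 14340 genes). At an unadjusted p under 0.05 in limma, 6 were lower and 0 higher. Such a p was common over all genes tested, at 6455 of 14340 in either direction, with no split by direction given here. For calls by adjusted p, the background was 12.3% of genes called lower, 17.7% called higher and 30.1% called either way. After quantile normalization all genes split into 2058 higher and 2619 lower, in place of 2544 and 1766, and 6 of the 10 members were called lower. The 4 falls were small to moderate, between 1.16-fold and 1.65-fold, and no member reached 2-fold. The median difference of the 10 genes was -0.21 on the log2 scale, against -0.02 over all genes tested. In 7 of the 10 genes both mimic arrays lay below both control arrays, as was so for 36.3% of all genes tested, and in 0 of the 10 both lay above (34.2% of all genes; 70.4% were apart either way). RNA came from whole cultures, so fewer cells with a transcript and less of it per cell cannot be told apart. The 5 subunit genes had a median of -0.05. The 5 genes of proteins that restrain or modify NF-kB, called inhibitor genes here for short, had one of -0.22. They include NFKBIZ, whose protein acts as a coactivator at some targets. In each of these sets 2 of the 5 genes were called lower, and the sets were not tested against each other. With 1 array left out, the median difference of the 10 members lay between -0.22 and -0.19. Fewer or no members passed then, but calls over all genes were also far fewer or absent. A call lost with 1 array left out, here and below, is thus not particular to these genes. With the replicate number as a block, 2 members were called lower, as were 979 of 14340 genes. With 2 arrays a group, the smallest two-sided p of an exact permutation test on 1 gene is 0.333.

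**Figure D1:**
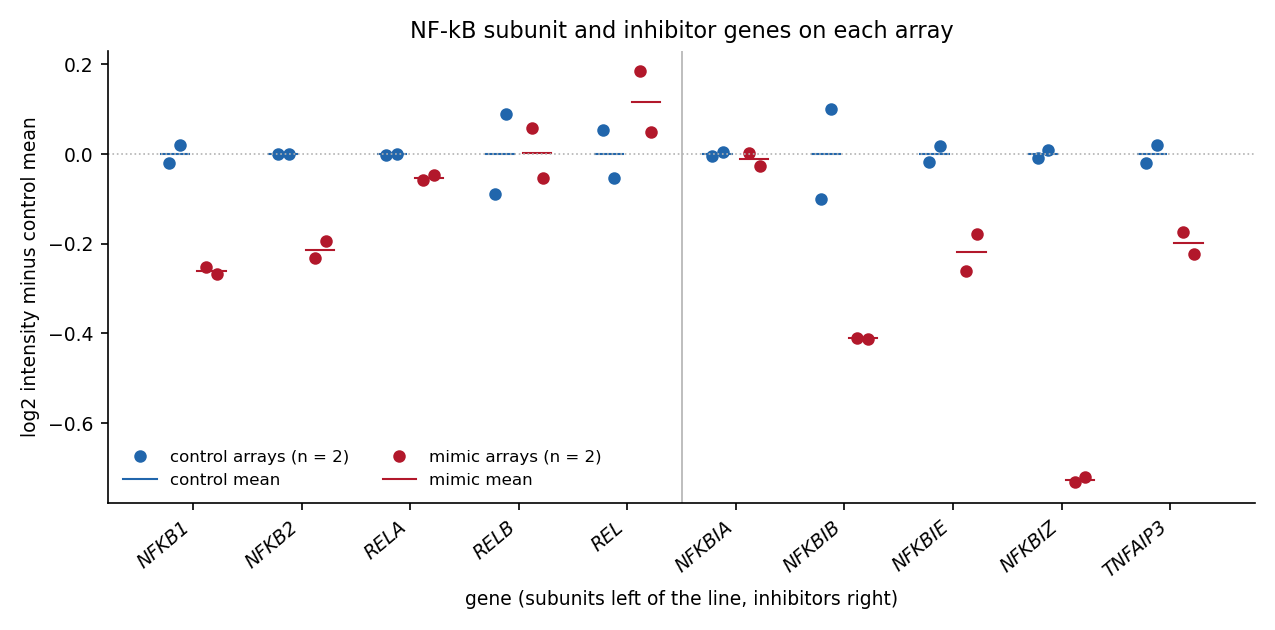
Log2 intensity of each gene on each of the 4 arrays, from its probe set with the highest mean, drawn as the difference from that gene's control mean (y axis) for the 10 genes (x axis). Points are arrays, 2 per group, and bars are group means. The mimic arrays of NFKBIZ lie farthest below their controls (-0.73 on the mean), those of NFKB1, NFKB2, NFKBIB, NFKBIE and TNFAIP3 lie 0.20 to 0.41 below, and the groups overlap in RELB, REL and NFKBIA.

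Among the subunits, the 2 genes that fell were those made as long precursors. NFKB1 encodes the precursor p105, from which the DNA-binding subunit p50 is cut and whose uncut form acts as an inhibitor. It read 8.24 and 8.22 in the mimic arrays and 8.47 and 8.51 in the controls (log2 intensity). The groups did not overlap, and the gap was several times the distance between arrays of a group. NFKB1 fell by 0.26 ± 0.0572 (SE; 95% interval -0.41 to -0.11; 1.20-fold; adjusted p = 0.0292, limma). NFKB2 encodes the precursor p100 of the subunit p52, the product of the alternative NF-kB pathway. Its levels were 5.77 and 5.81 with the mimic and 6.00 and 6.01 in the controls. These groups did not overlap either. NFKB2 fell by 0.21 ± 0.0567 (1.16-fold; adjusted p = 0.0464), close to the threshold. When every probe set was tested in place of 1 per gene, the same probe set of NFKB2 had an adjusted p of 0.0691. Neither call held when any 1 array was left out: NFKB1 then lay between -0.28 and -0.24 and NFKB2 between -0.23 and -0.19. Over the 13 alternatives the adjusted p was 0.00366 to 0.157 for NFKB1 and 0.0156 to 0.21 for NFKB2.

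The 3 subunit genes whose proteins carry a transactivation domain did not pass. RELA encodes p65, which pairs with p50 in the classical NF-kB dimer. Its brightest probe set read 9.22 and 9.23 in the mimic arrays and 9.28 in both controls. The groups were apart but by little: the difference was -0.05, with a 95% interval of -0.20 to 0.09. The other 2 RELA probe sets were dim, between 2.83 and 3.61 on any array, overlapped between groups and gave 0.09 and 0.17. RELB, the partner of p52, had 7.41 and 7.29 with the mimic and 7.26 and 7.44 in the controls. Both mimic arrays lay between the 2 controls, and the difference was 0.00 (95% interval -0.22 to 0.23), or -0.10 after quantile normalization. REL encodes c-Rel, a subunit best known from lymphoid cells. Its values were 5.42 and 5.28 in the mimic arrays and 5.29 and 5.18 in the controls, which overlapped, with a difference of 0.12 (95% interval -0.08 to 0.32). The second REL probe set gave 0.11. A fall as large as that of NFKB1 lay just outside the intervals of RELA and RELB and well outside that of REL. One as large as that of NFKB2 (0.21) lay inside the interval of RELB and at the edge of that of RELA. The differences of the 5 subunit genes were not tested against each other.

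NFKBIZ had the largest difference of the 10 genes. It encodes IkB-zeta, an atypical nuclear member of the IkB family that is induced by interleukin 1 and interleukin 17 signals and acts as a coactivator at a subset of NF-kB targets. Its level was 8.02 and 8.03 in the mimic arrays and 8.75 and 8.76 in the controls. Arrays of a group differed by 0.0187 at most, and the groups were far apart. NFKBIZ fell by 0.73 ± 0.0559 (SE; 95% interval -0.87 to -0.58), or 1.65-fold (adjusted p = 0.00216). By the size of its difference it ranked 90 among genes from the lowest up, and 715 by absolute size, of 14340. It was measured by a single probe set. The call held without either control array (adjusted p = 0.0464 and 0.0430) and was lost without mimic replicate 1 or 2 (0.0592 and 0.0589), and the difference stayed between -0.74 and -0.72. Over all 13 alternatives the difference lay between -0.81 and -0.69.

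Of the genes of the 3 classical cytoplasmic inhibitors, NFKBIB fell, and NFKBIA and NFKBIE did not pass; the differences were not tested against each other. NFKBIB encodes IkB-beta, an inhibitor that is degraded more slowly than IkB-alpha. It read 6.25 in both mimic arrays and 6.56 and 6.76 in control replicates 1 and 2. The groups did not overlap, but the controls differed from each other by more than the arrays of any other member called. NFKBIB fell by 0.41 ± 0.0843 (1.33-fold; adjusted p = 0.0244). All 4 of its probe sets were lower, from -0.54 to -0.34, and in each both mimic arrays lay below both controls. Probe sets of 1 gene read the same RNA samples and are not replicates. With control replicate 1 left out the difference was -0.51, and with control replicate 2 left out -0.31; no left-out array kept the call (adjusted p = 0.0524 to 0.152). With _s_at and _x_at probe sets, which may also bind other transcripts, left out, it was -0.38 (adjusted p = 0.0834).

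NFKBIA encodes IkB-alpha, the main feedback inhibitor, and differed little between the groups. Its values were 11.09 and 11.06 in the mimic arrays and 11.08 and 11.09 in the controls. The groups overlapped, and the difference was -0.01 with a 95% interval of -0.16 to 0.13. Its other 2 probe sets gave -0.01 and 0.04. A fall of the size seen in NFKBIZ or NFKBIB lay outside the interval of each of the 3 probe sets. By absolute size its difference ranked 13763 of 14340 genes.

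NFKBIE and TNFAIP3 had differences below 0 that did not pass, by a small margin. NFKBIE encodes IkB-epsilon, an inhibitor that is resynthesised late in the response. It had 7.44 and 7.53 in the mimic arrays and 7.69 and 7.72 in the controls, without overlap (-0.22 ± 0.0627, adjusted p = 0.0549, limma). TNFAIP3 encodes A20, a ubiquitin-editing enzyme that shuts off signalling upstream of the IKK kinases. Its levels were 10.59 and 10.54 with the mimic and 10.74 and 10.78 in the controls, again without overlap (-0.20 ± 0.0590, adjusted p = 0.0607). Its second probe set gave -0.23 (7.86 and 7.85 against 8.04 and 8.14). Both genes passed in 5 of the 9 alternatives that kept all 4 arrays, quantile normalization among them (-0.31 and -0.23), and in none that left out 1.

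**Figure D2:**
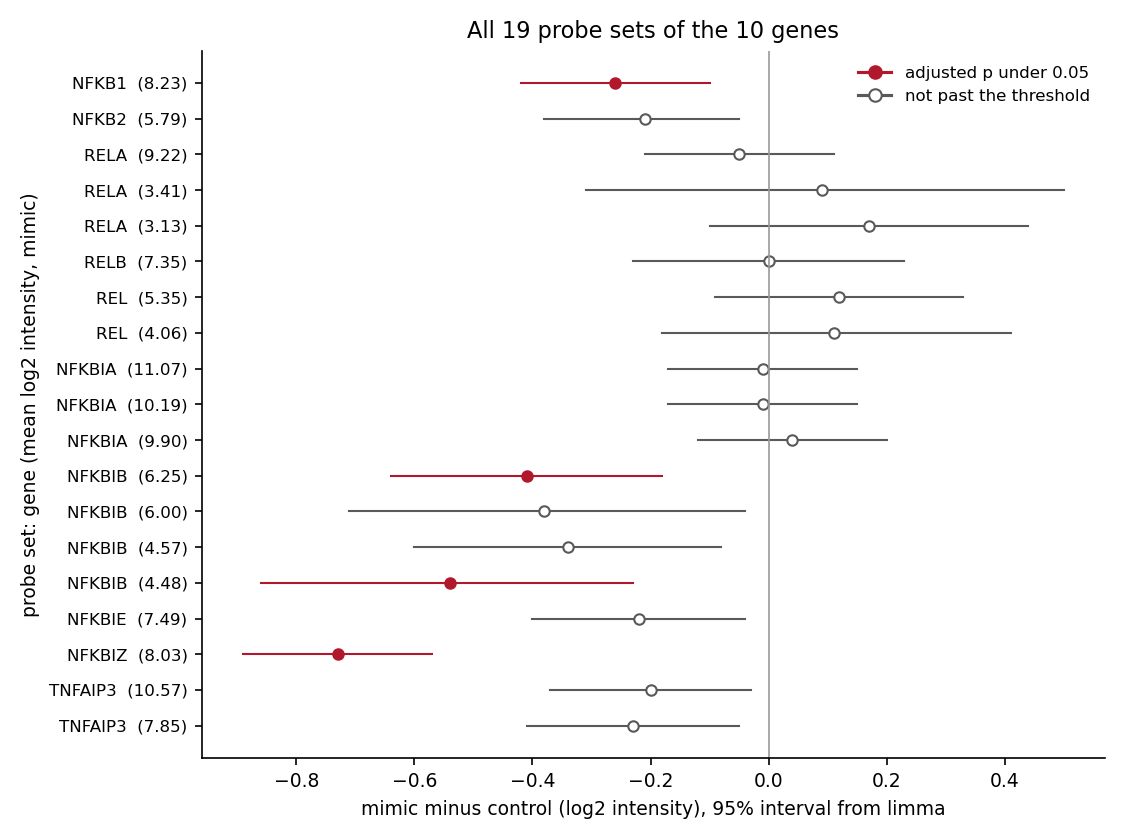
Mimic minus control difference in log2 intensity (x axis) with its 95% interval from limma for each of the 19 probe sets (y axis, gene with the mean log2 intensity of the mimic arrays). Filled red points passed an adjusted p of 0.05 in the fit over 31711 probe sets. The 4 filled points, all below 0, belong to NFKB1, NFKBIB (2 probe sets) and NFKBIZ, and the intervals of RELA, RELB, REL and NFKBIA include 0.

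Tested as single probe sets, 4 of the 19 were called lower and 0 higher in limma. For these calls the background was 7.95% of 31711 probe sets called lower and 14.5% called higher. At an unadjusted p under 0.05 in limma, 10 of the 19 were lower and 0 higher. No share of all probe sets at that p is given here, so these counts cannot be judged against one. The gene fit, with 6455 of 14340 genes at such a p in either direction, has another unit and no split by direction. Both mimic arrays lay below both controls in 11 of the 19 and above them in 1, a probe set of NFKBIA, against 33.2% and 33.4% of all probe sets (66.6% either way). Probe sets of the same gene had the same sign in NFKBIB, TNFAIP3 and REL, and opposite signs in RELA and NFKBIA.

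**Figure D3:**
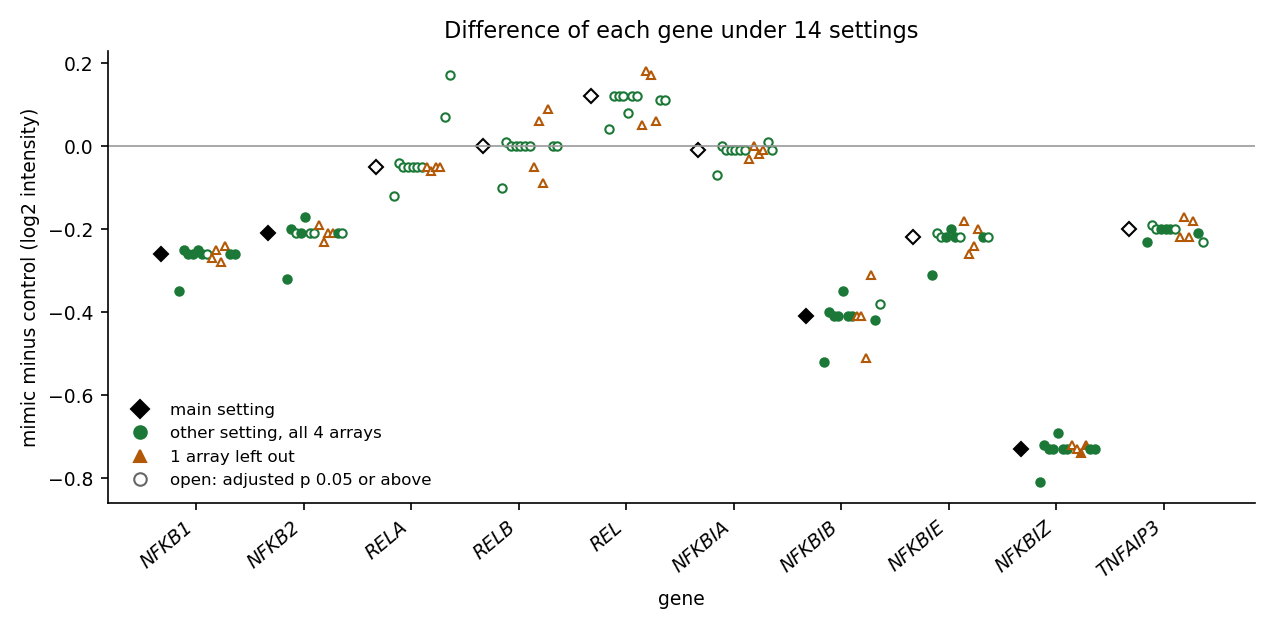
Mimic minus control difference in log2 intensity (y axis) of each of the 10 genes (x axis) in the main setting (diamonds), in 9 settings that keep all 4 arrays (circles) and with 1 array left out (triangles). Filled symbols have an adjusted p under 0.05. NFKBIZ stays between -0.81 and -0.69, NFKBIB spans -0.52 to -0.31, and NFKB1, NFKB2, NFKBIE and TNFAIP3 stay below 0, whereas RELA, RELB and NFKBIA cross it.

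The 3 genes with the pattern most like that of NFKBIZ were GPSM3, PLS1 and MICB, by the distance between log2 values centred on each gene's mean. The distances over the 4 arrays were 0.0188, 0.0238 and 0.0313. GPSM3 encodes a regulator of G proteins, PLS1 an actin-bundling protein and MICB a stress-induced ligand of a natural killer cell receptor. Their differences were -0.72, -0.74 and -0.75. With _s_at and _x_at probe sets dropped, PLS1 was at -0.34 and MICB at -0.25, past the threshold for PLS1 and not for MICB (adjusted p = 0.103, limma); averaged over probe sets they were at -0.54 and -0.40. GPSM3 was at -0.44 with log2(intensity + 16). With only 4 arrays, such closeness mostly reflects a similar difference and little spread.

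Regulators of NF-kB outside the subunit and inhibitor genes went both ways. Among the 17 tested there were 2 that rose, 3 that fell and 12 that did not pass, with a median of -0.04. The called share was 29.4% of these genes against 30.1% of all genes (higher, 11.8% against 17.7%; lower, 17.6% against 12.3%). CYLD, a deubiquitinase that restrains NF-kB signalling, read 6.12 and 6.10 in the mimic arrays against 5.77 and 5.75, and rose by 0.35 ± 0.0562 (adjusted p = 0.0132, limma). OTULIN, which removes linear ubiquitin chains, had 6.77 and 6.74 against 5.97 and 6.27 and rose by 0.63. OTULIN lost its call without control replicate 1 (0.48) and kept it without control replicate 2 (0.78). BCL3, an atypical nuclear IkB protein like IkB-zeta, had 7.44 and 7.45 against 7.74 and 7.70 and fell by 0.27 (adjusted p = 0.0245, limma). The BCL3 call was lost when probe sets marked _s_at or _x_at were dropped (-0.06, adjusted p = 0.549) and when its probe sets were averaged (-0.18, adjusted p = 0.118). NKIRAS2, which encodes a small GTPase that binds IkB-beta, fell by 0.37, although 1 of its 4 probe sets did not share that sign. TAX1BP1, a partner of A20, fell by 0.24, with 4 of its 5 probe sets below 0; averaging them gave -0.15 and no call (adjusted p = 0.09), and the call was also lost with no filter (adjusted p = 0.055). For CYLD the average over probe sets was 0.58. CYLD, BCL3, NKIRAS2 and TAX1BP1 each lost the call whichever array was left out.

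Genes of the signalling from receptors to the IkB proteins (upstream genes, those of the IKK kinases included) also went both ways. Among the 31 tested, 6 rose and 3 fell, with 22 not past the threshold and with a median of 0.02. That is 29% called against 30.1% of all genes (higher, 19.4% against 17.7%; lower, 9.68% against 12.3%). TAB3, an adaptor of the kinase TAK1, had the largest rise, from 7.05 and 6.89 in the controls to 7.64 and 7.66 (0.68 ± 0.0749, adjusted p = 0.00504, limma), although 2 of its 5 probe sets had the opposite sign. Averaged over probe sets TAB3 was at 0.42, and at 1.17 once _s_at and _x_at sets were dropped. MAP3K14, the NIK kinase of the alternative pathway, rose by 0.57, with the second of its 2 probe sets at 0.00 and their average at 0.28. BIRC2, a ubiquitin ligase at TNF receptors, rose by 0.38 and the paracaspase gene MALT1 by 0.35, with all 5 and all 4 probe sets of the same sign. The 3 that fell were MYD88, the adaptor of interleukin 1 and Toll-like receptors (6.05 and 6.10 against 6.61 and 6.36, a fall of 0.41), RBCK1, part of the linear ubiquitin ligase (0.27), and the receptor gene IL1R1 (0.22). The second MYD88 probe set gave -0.05 and the average of both -0.23. RBCK1 lost its call when _s_at and _x_at sets were dropped (-0.14, adjusted p = 0.392) and when its probe sets were averaged (-0.20, adjusted p = 0.0584). IL1R1 lost its call with no filter, with log2(intensity + 16) (-0.12), with trend and robust eBayes and with _s_at and _x_at sets dropped, at adjusted p between 0.0569 and 0.124. The MYD88 call was lost with no filter (adjusted p = 0.0512). Its difference was -0.28 with control replicate 1 left out and -0.54 with control replicate 2 left out. Of these 7 genes only TAB3 kept its call when a control array was left out. The kinase genes CHUK and IKBKB and the scaffold gene IKBKG did not pass (0.09, -0.02 and -0.20; the 3 were chosen after their values were seen).

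Genes known as NF-kB targets were called in both directions, with differences from -2.37 to 1.22. Among the 29 tested, 5 rose and 6 fell, with 18 not past the threshold and with a median of -0.01. That is 37.9% called against 30.1% of all genes (higher, 17.2% against 17.7%, and lower, 20.7% against 12.3%). The list was written with earlier results of these arrays known. IL6, the gene of the cytokine interleukin 6, read 5.76 and 5.85 in the mimic arrays and 8.03 and 8.31 in the controls. It fell by 2.37 ± 0.109 (5.15-fold, adjusted p = 0.00106, limma), whereas its second probe set gave -0.16 and the average of both -1.26. The neutrophil chemokine genes CXCL1 (9.16 and 9.22 against 10.37 and 10.53) and CXCL2 (8.70 and 8.65 against 9.47 and 9.59) fell by 1.26 and 0.85. PTGS2, the gene of cyclooxygenase 2, fell by 0.46, a call lost whichever array was left out. In the other direction, the interferon-induced chemokine gene CXCL10 rose by 1.22 (5.73 and 5.69 against 4.46 and 4.52) and the cytokine gene IL1B by 1.11 (8.47 and 8.52 against 7.33 and 7.42). The surface protein gene CD83 rose by 0.80 and the monocyte chemokine gene CCL2 by 0.75; with 16 added to each intensity before the logarithm they were at 0.38 and 0.43. The CD83 call was lost whichever array was left out, and the CCL2 call without control replicate 1 (0.64) or either mimic array. Whether a target's difference follows from that of any subunit or inhibitor was not tested.

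**Figure D4:**
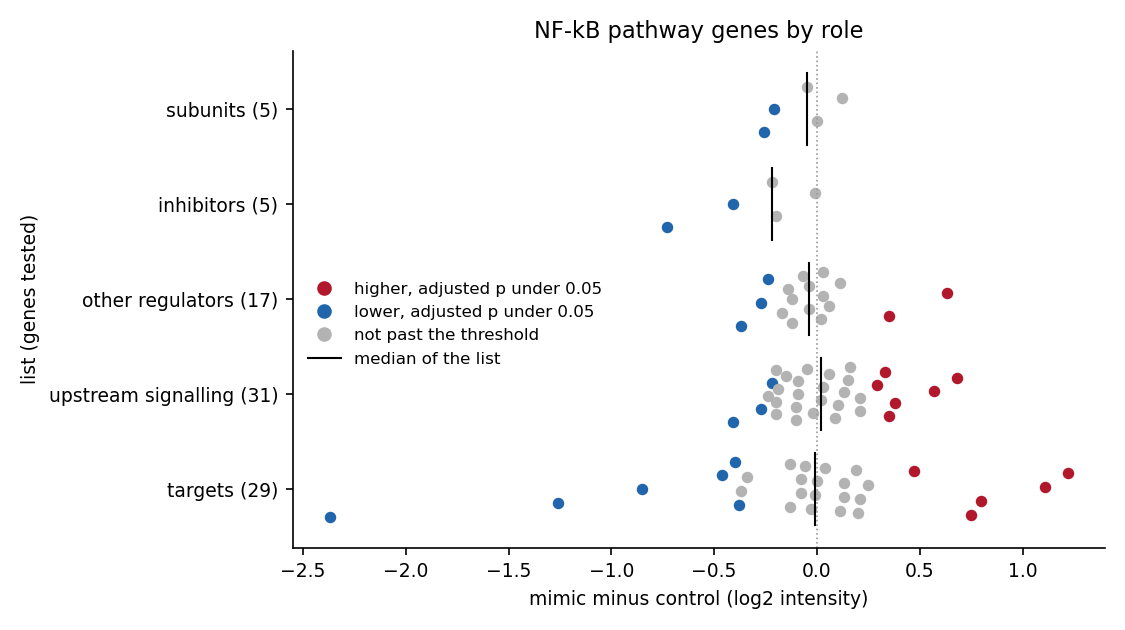
Mimic minus control difference in log2 intensity (x axis) of every gene tested, by its role in the pathway (y axis, with the number of genes tested). Points are genes, coloured by call (adjusted p under 0.05 over 14340 genes), and black bars are list medians. Called subunit and inhibitor genes all lie below 0, between -0.73 and -0.21, while targets reach from -2.37 to 1.22.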

How the data were processed

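The deposited values are linear intensities, 1 per probe set and array, made by the authors with RMA, per the submitters' processing notes; for its software and settings, nothing was given in the sources used here. Log2 was taken. No detection calls were used, and the number of arrays limits the precision.

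Probe sets were named from the platform annotation, updated to RefSeq (GRCh38.p14), and 44988 of 49293 named 1 gene. Of these, 31711 entered after the lowest 30% of probe sets by mean were left out (below 2.83, log2). Each gene took its brightest probe set on average (14340 genes), and a second fit took all 31711 probe sets. Limma 3.58.1 (R 4.3.3, lmFit and eBayes), checked on simulated data, compared mimic with control without a block. Benjamini-Hochberg adjustment ran over all features, at 0.05, and every SE, interval and adjusted p is limma's. Members and lists were chosen with earlier results of these data known. The text names all members, per list up to 4 called genes per direction with the largest differences, and the 3 genes nearest in pattern to the called member that fell most (none rose), besides genes marked as added. The 13 alternatives for named genes that are no members were added after the data were seen.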

Additional observations from a re-analysis of the deposited data

How the results depend on the processing

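Over 13 alternatives the 10 members gave 130 differences, of which 93 kept direction and side of the threshold, 20 lost the call, 10 gained it and 7 changed sign, and the other 23 named genes kept 208 of 298, lost 90 and changed none in sign. All 7 changes of sign were in genes not called: RELA (0.07 as the mean over probe sets, 0.17 without _s_at and _x_at probe sets), RELB (-0.10 after quantile normalization, -0.05 without mimic replicate 1, -0.09 without control replicate 1, in a range of -0.09 to 0.09 with 1 array left out) and NFKBIA (0.00 without mimic replicate 2, in a range of -0.03 to 0.00 with 1 array left out, and 0.01 as the mean over probe sets). CD83 had no value without the lowest 50% of probe sets. The replicate number as a block left 2 members lower, 1 member probe set lower, 0 upstream genes lower (4 at an unadjusted p under 0.05 in limma) and 1 other regulator lower. No shift shared by samples of the same number was seen over genes (correlation of deviations -0.00105). That value cannot show whether the samples were handled in pairs. Without _s_at and _x_at probe sets 2 members and 2 member probe sets were lower. Without a filter 1 upstream gene and 1 member probe set were lower. Member probe sets called lower numbered 9 after quantile normalization, 8 without the lowest 50%, 8 with log2(intensity + 16) and 9 with trend and robust eBayes. Counts over all probe sets in these settings are not given here. Lower calls over all genes moved as well, from 1766 of 14340 in the main setting. They numbered 2619 after quantile normalization, 1977 with log2(intensity + 16), 2103 with trend and robust eBayes and 979 with the replicate block. Without the lowest 50% they were 1812 of 11300, without _s_at and _x_at probe sets 1311 of 12723, and without a filter 1370 of 18132. Other regulators called lower numbered 5 after quantile normalization and 1 as the mean over probe sets, where 1756 of 14340 genes were. Targets called higher numbered 8 with trend and robust eBayes, where higher calls over all genes were 3139, against 2544 in the main setting. The causes were not tested. With 1 array left out, limma called between 0 and 1 members lower (3 to 6 at an unadjusted p under 0.05) and 0 higher, 0 member probe sets lower (3 to 9 unadjusted), 0 to 1 upstream genes higher and 0 lower (2 to 5 unadjusted), 0 to 1 other regulators higher and 0 lower (2 to 5 unadjusted), and 0 to 3 targets higher and 0 to 3 lower; all zeros without a mimic array go with 0 calls over all genes.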
